A study of Mus musculus with 43 samples.

Results

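TGF-beta, BMP and activin signalling genes were followed in inguinal white adipose tissue of young and adult mice. The list of 52 genes was drawn up by function: ligands, their receptors, antagonists and binding proteins, latent TGF-beta binding proteins, Smads and the Id genes. The tables hold 51 of the 52 genes among 22622 gene identifiers, and Gdf10 was not analysed here. The study measured messenger RNA by RNA-seq of bulk tissue in 43 libraries, in 5 separately normalized tables, to compare tissue around weaning with tissue of cold-exposed adults.

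C57BL/6J mice of P28 were housed at 30 C (n = 4) or at 22 C (n = 4). TrkA-flox Th-cre mice of P28 at 22 C (n = 4) were set against the same 4 wild-type libraries at 22 C, in a table of their own. Th-cre is driven from the tyrosine hydroxylase gene, as in sympathetic neurons. Bcl6-flox Prx1-cre mice of P25 at 22 C (n = 8) were compared with Bcl6-flox mice of that age and temperature (n = 7). Adults of 9 weeks at 4 C were Bcl6-flox Prx1-cre (n = 4) or Bcl6-flox (n = 4). Adult C57BL/6J mice of 9 weeks were kept at 4 C (n = 4) or at 22 C (n = 4). The product of Bcl6 represses transcription. The Prx1 driver is active in limb mesenchyme and in lineages that give rise to this fat pad. The labels do not say that libraries of a group came from separate animals, so the p-values measure the spread between these libraries only.

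Ligands of this family bind pairs of type I and type II receptor kinases, which phosphorylate Smad proteins that enter the nucleus. BMP receptors act mainly through Smad1, Smad5 and Smad9, with the Id genes as usual targets, whereas TGF-beta and activin receptors act mainly through Smad2 and Smad3. In adipose tissue, BMP signalling is known for its part in commitment of fat cell precursors and in brown and beige fat, and TGF-beta signalling for its part in the extracellular matrix of the fat pad. Chordin, chordin-like proteins, gremlin and noggin hold BMPs away from their receptors, and follistatin and follistatin-like proteins bind activins among others. Some of the Ltbp proteins, though not all, store latent TGF-beta in the matrix.

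The promoters of 3 members are shown because they hold letters of a Smad-binding element and because 2 of these genes, the type I receptors Bmpr1a and Acvr1b, were lower in the same comparison below. The third, Smad6, encodes an inhibitory Smad that is itself a known BMP target. RefSeq promoter windows run from 250 bases before to 50 bases after a listed start, which need not be the outer end of the gene. They were matched for 35 of the members, which had 45 windows. The windows shown lie at chr14:34502497-34502796 on the minus strand for Bmpr1a, chr15:101173822-101174121 on the plus strand for Acvr1b and chr9:64022010-64022309 on the minus strand for Smad6, in build GRCm38.p6. That of Bmpr1a lies inside the gene, which spans 34411061 to 34503336. Capitals mark the GC-rich Smad element GGCGCC in the first pair and the palindromic Smad element GTCTAGAC in Smad6, each found on both strands because it reads the same on either.
Bmpr1a: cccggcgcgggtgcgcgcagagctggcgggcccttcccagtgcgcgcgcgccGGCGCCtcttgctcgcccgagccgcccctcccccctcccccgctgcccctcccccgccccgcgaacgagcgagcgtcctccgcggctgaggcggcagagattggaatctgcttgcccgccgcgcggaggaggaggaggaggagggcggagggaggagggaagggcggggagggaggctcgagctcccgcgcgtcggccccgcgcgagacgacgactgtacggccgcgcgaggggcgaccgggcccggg
Acvr1b: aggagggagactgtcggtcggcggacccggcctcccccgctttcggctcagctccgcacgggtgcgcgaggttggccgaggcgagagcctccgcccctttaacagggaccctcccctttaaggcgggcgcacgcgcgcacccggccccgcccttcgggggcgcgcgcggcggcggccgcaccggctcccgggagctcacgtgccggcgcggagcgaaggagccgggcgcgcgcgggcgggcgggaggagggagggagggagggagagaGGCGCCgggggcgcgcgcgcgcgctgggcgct
Smad6: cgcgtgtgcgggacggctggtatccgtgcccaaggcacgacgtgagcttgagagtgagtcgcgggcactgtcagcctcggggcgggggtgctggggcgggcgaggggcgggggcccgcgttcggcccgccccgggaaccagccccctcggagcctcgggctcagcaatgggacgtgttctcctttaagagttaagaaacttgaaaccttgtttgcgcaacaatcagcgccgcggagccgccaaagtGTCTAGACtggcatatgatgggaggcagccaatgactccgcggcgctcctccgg
GGCGCC stood in 11.9% of all 32851 promoter windows and in those of 10 of the 35 member genes: Bmpr2, Grem1, Smad9, Tgfbr1, Ltbp4, Id2, Smad5, Bmpr1a, Acvr1b and Chrd. The 35 genes had 45 windows, so a share of windows and a count of genes do not compare directly. In the adult Bcl6 comparison below, where Bmpr1a and Acvr1b were lower, Ltbp4 was higher, Grem1 was not tested and the others did not pass. GTCTAGAC stood in 0.213% of all windows and, among members, in that of Smad6 alone. A spaced motif with no tie to Smads, TTCNNNGAA, stood in 8.3% of all windows and in that of no member. These are matches of letters, not binding sites.

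Values are counts per gene that the authors normalized within a table, so levels are not set across tables or between genes. Normalized totals per library were 4822232 to 5361985 at P28 for temperature and 4262412 to 4703630 for TrkA, 9675800 to 11656939 at P25, 22380482 to 26488234 for the adult Bcl6 genotypes and 7003070 to 8885442 for adult wild type. All 7 measured adipocyte markers, Adipoq and Plin1 among them, passed the filter in all 5 tables. Ucp1, the thermogenic uncoupling protein, fell at 30 C, in TrkA-flox Th-cre and in both Bcl6 comparisons and rose at 4 C, where it averaged 21150 ± 13420 normalized counts against 289 ± 150 at 22 C (SD, n = 4 each; limma adjusted p = 0.00248). The total of Bcl6 itself went against its label: it averaged 2714 ± 584 in libraries labelled Bcl6-flox Prx1-cre and 825 ± 340 in Bcl6-flox at P25 (SD, n = 8 and 7), and at 9 weeks 11610 ± 2339 in libraries labelled Bcl6-flox Prx1-cre and 1995 ± 392 in Bcl6-flox (SD, n = 4 each). A gene total can hold reads from exons outside the floxed part, and reads by exon were not used here, so every direction for these libraries rests on the labels. Th was listed at or near 0 in all tables.

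Of the 51 genes, 41 reached the filter of 10 normalized counts in enough libraries to be tested in all 5 comparisons, and 4 were tested in some: Bmp5 in 1, Gdf15 and Grem1 in 2 each and Smad9 in 3. The other 6 were tested in none. The BMP antagonist Nog peaked at 7.38 normalized counts in any library, the activin subunit Inhba at 10, Gdf3 at 12.4, Gdf6 at 14 and the type I receptor Bmpr1b at 16.1. Mstn, which encodes the muscle hormone myostatin, reached 224 in Bcl6-flox replicate 3 of 9 weeks, a library that also had the highest skeletal muscle markers of its table.

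Over the 5 comparisons, 16 of 213 member tests passed limma's adjusted p of 0.05, and these fell on 14 genes. In the order of the groups above, 9.52%, 2.38%, 0.0%, 20.5% and 4.76% of members passed. Of all genes, 4.45%, 2.66%, 3.53%, 14.5% and 4.47% passed. The 16 calls were spread over ligands, receptors and extracellular modulators, and none was a Smad or an Id gene, but they are few to read by role. Bmpr1a and Chrdl1 passed in 2 comparisons each, Bmpr1a lower in both and Chrdl1 once higher and once lower. The 5 calls that passed with each library left out in turn were all in the adult Bcl6 comparison. In bulk tissue, a lower value can come from fewer cells of a type or from less RNA per cell, which cannot be told apart.

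**Figure D1:**
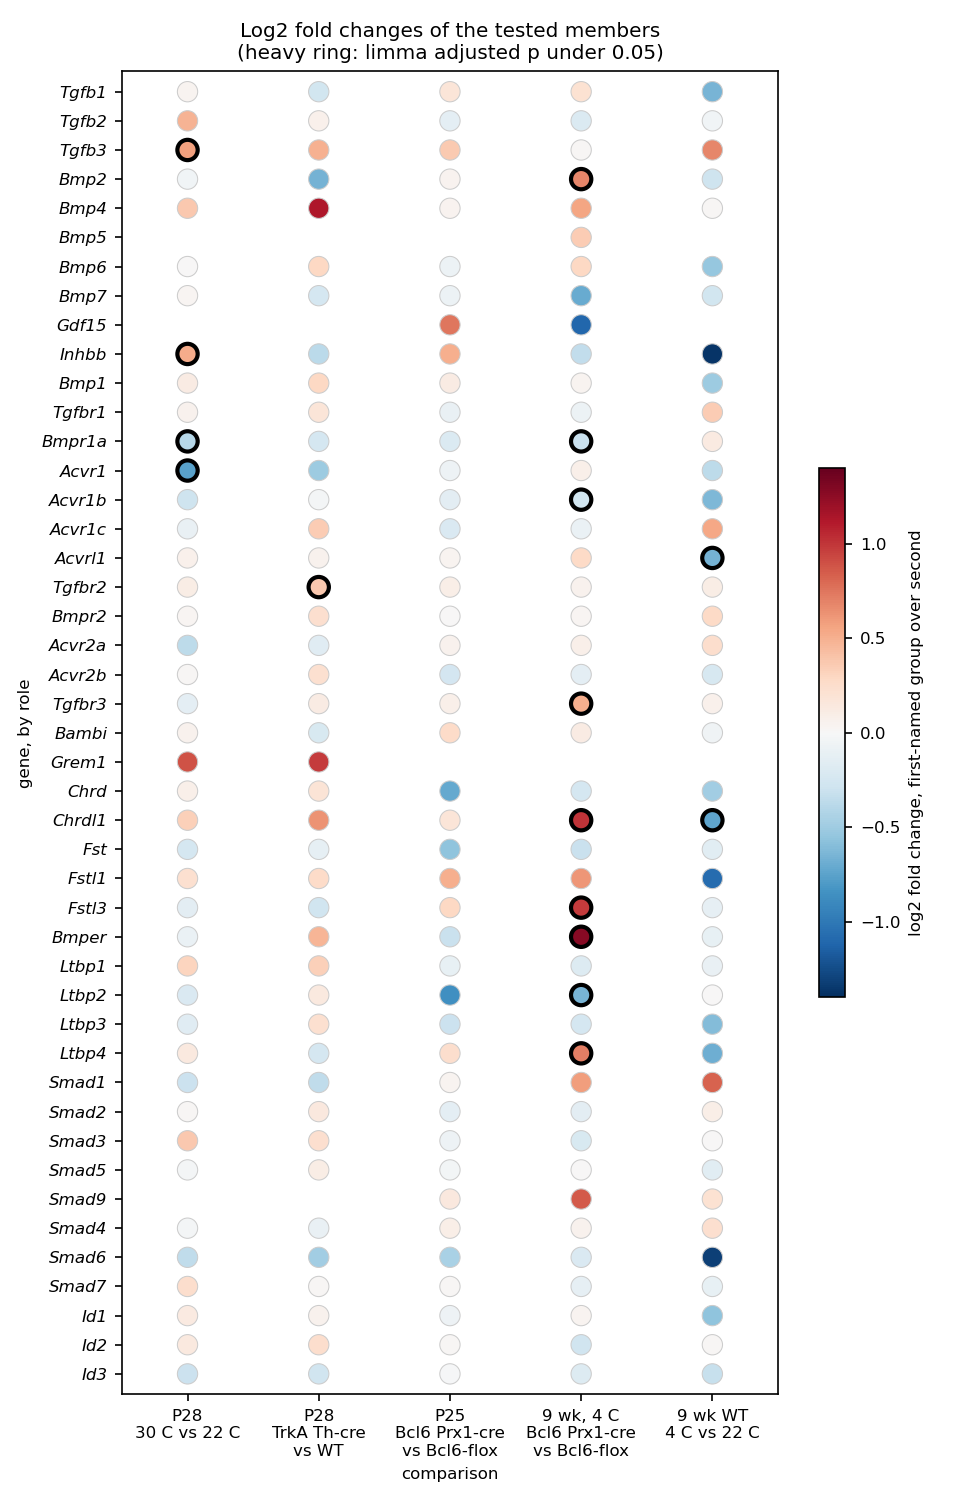
Log2 fold change of each tested member (rows, by role) in the 5 comparisons (columns), first-named group over second. Colour gives the log2 fold change, a heavy ring marks limma adjusted p under 0.05, and no dot means not tested. The rings number 16, of which 9 stand in the adult Bcl6 column and none in the P25 column.

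At P28, warm housing at 30 C went with lower RNA of type I BMP receptors Acvr1 and Bmpr1a and with higher RNA of the ligand genes Inhbb and Tgfb3. Among 42 members tested, 2 were higher and 2 lower, which is 9.52% of them. Over all 12283 genes tested, 1.29% were higher and 3.17% lower, and 4 calls are few to read against that background. The members' median log2 fold change was 0.03, against 0.01 over all genes. At an unadjusted p under 0.05, 11 members passed (26.2%), beside 19.4% of all genes.

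Tgfb3, a TGF-beta ligand, had 139, 133, 108 and 161 normalized counts at 30 C, against 87.3, 88.4, 83.5 and 100 at 22 C. All 4 libraries at 30 C lay above all 4 at 22 C. Its log2 fold change was 0.57 ± 0.13 (SE; limma adjusted p = 0.0443). Inhbb, whose product is the beta subunit of activin B, had 174, 240, 179 and 200 at 30 C, against 136, 147, 123 and 141 at 22 C. These ranges did not overlap either, and the log2 fold change was 0.52 ± 0.12 (SE; limma adjusted p = 0.0407). The other TGF-beta ligand genes did not pass, with log2 fold changes of 0.49 for Tgfb2 (limma adjusted p = 0.392) and 0.04 for Tgfb1 (limma adjusted p = 0.887).

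Acvr1, a type I receptor for BMPs, had 138, 152, 152 and 172 normalized counts at 30 C, against 303, 251, 208 and 289 at 22 C. The highest value at 30 C was below the lowest at 22 C, and Acvr1 fell by 0.76 ± 0.13 on the log2 scale (SE; limma adjusted p = 0.0146). Bmpr1a, the type I receptor that binds BMP2 and BMP4, had 387, 440, 379 and 383 at 30 C, against 521, 516, 502 and 560 at 22 C. It fell by 0.40 ± 0.07 (SE; limma adjusted p = 0.0157), again with no overlap. Among type II receptors, Acvr2a had 193, 155, 185 and 148 at 30 C, against 190, 233, 225 and 224 at 22 C. A library at 30 C lay above the lowest at 22 C, and the log2 fold change was -0.36 ± 0.11 (SE; limma adjusted p = 0.111).

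Smad3, which carries TGF-beta and activin signals, had 363, 316, 393 and 318 at 30 C, against 255, 252, 286 and 276 at 22 C. The ranges were apart, yet the log2 fold change of 0.37 ± 0.09 had a limma adjusted p of 0.0505. Antagonists did not pass: Grem1 had 13.1, 25.2, 23.9 and 16.8 at 30 C, against 14.2, 10.8, 5.49 and 10.7 at 22 C (log2 fold change 0.90 ± 0.36, SE; limma adjusted p = 0.209), and Chrdl1 showed a log2 difference of 0.33 (limma adjusted p = 0.214). With Xist as covariate Chrdl1 passed by limma (0.43, adjusted p = 0.0115), beside 4.32% of all genes. Xist itself had 8390, 6942, 8772 and 3.35 at 30 C, against 0, 2.50, 6844 and 6645 at 22 C, so its high libraries were not balanced. Id1, a usual BMP target, had 382, 342, 183 and 191 at 30 C, against 199, 254, 277 and 227 at 22 C, which overlap widely. Id3 had 382, 402, 326 and 351 at 30 C, against 501, 374, 466 and 464 at 22 C (limma adjusted p = 0.15).

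Of the wider pathway, 1 of 41 tested genes passed, the kinase gene Hipk2, which was lower (log2 fold change -0.46 ± 0.11, SE; limma adjusted p = 0.0477). The wider pathway's share was 2.44%, beside 4.45% of all genes. Of 20 usual TGF-beta and BMP target genes tested, 1 passed, the smooth muscle actin gene Acta2, which was higher at 483 ± 44.1 at 30 C against 352 ± 43.0 at 22 C (SD, n = 4 each; log2 fold change 0.46 ± 0.10, SE; limma adjusted p = 0.0416). Acta2 lost its call in all 8 fits that left out a library (limma adjusted p 0.0529 to 0.128), and Hipk2 in 7 of 8 (up to 0.127).

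Skeletal muscle markers summed to 370 to 19280 normalized counts per library at 30 C, against 365 to 1072 at 22 C, with 0 of 10 tested markers called by limma. Macrophage markers summed to 7312 to 9006 at 30 C, against 4933 to 6883 at 22 C, with 3 of 12 called higher (Lyz2, C1qb and Trem2). When the skeletal muscle score was added to the fit, no member passed by limma, and the adjusted p of these 4 ran from 0.0856 for Acvr1 to 0.235 for Tgfb3. Their log2 fold changes were then -0.79 for Acvr1, -0.42 for Bmpr1a, 0.46 for Inhbb and 0.36 for Tgfb3, while calls over all genes came to 0.79% in place of 4.45%. Adipocyte markers summed to 85640 to 98640 at 30 C, against 56860 to 77210 at 22 C. Of 7 tested, 2 had positive log2 fold changes and 1 was called, Cfd, which was higher. The part of macrophage and adipocyte RNA in these results was not tested. Without 22 C replicate 4 the limma adjusted p was 0.0562 for Acvr1 and 0.058 for Bmpr1a, and without 22 C replicate 2 it was 0.0502 for Bmpr1a. Inhbb passed with none of the 8 libraries left out (limma adjusted p 0.053 to 0.0997), and Tgfb3 passed only without 30 C replicate 3 (0.0326 there, up to 0.113 elsewhere).

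In TrkA-flox Th-cre tissue of P28, the type II receptor gene Tgfbr2 was higher than in wild type, and no other member passed. That is 1 of 42 members, or 2.38%, beside 1.34% of all 11899 genes tested higher and 1.32% lower, so the share is near that of all genes. The members' median log2 fold change was 0.11, against -0.01 over all genes, and 15 members (35.7%) had an unadjusted p under 0.05, beside 19.2% of all genes. Because the 4 wild-type libraries at 22 C are also those of the temperature comparison, the results of both tables share their controls.

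Tgfbr2 encodes the receptor that binds TGF-beta itself. It had 1763, 1783, 1710 and 1713 normalized counts in TrkA-flox Th-cre, against 1339, 1347, 1241 and 1423 in wild type. The groups did not overlap, and the log2 fold change was 0.38 ± 0.07 (SE; limma adjusted p = 0.0292). At 30 C against 22 C it was 0.10 (limma adjusted p = 0.409). The call passed by limma only without TrkA-flox Th-cre replicate 4 (adjusted p = 0.0167), reached 0.0511 to 0.0886 without each of the other 7 libraries, and was 0.368 with the skeletal muscle score and 0.0561 with Xist as covariate. The log2 fold change was 0.38 in both of these fits, and with the muscle score 0.168% of all genes passed. Xist itself had 3.93, 6.05, 7663 and 0 in TrkA-flox Th-cre, against 0, 2.18, 6066 and 5839 in wild type, so its high libraries were not balanced.

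Some members did not pass although their groups were apart, and the share of all genes with groups apart was not counted. Bmper, a BMP-binding modulator, had 141, 124, 141 and 178 in TrkA-flox Th-cre, against 108, 99.1, 101 and 108 in wild type (log2 fold change 0.47 ± 0.13, SE; limma adjusted p = 0.0823). Bmp4, a ligand known to drive fat cell commitment, had 40.6, 31.3, 45.8 and 29.1 in TrkA-flox Th-cre, against 17.2, 27.1, 13.1 and 10.6 in wild type. Its log2 fold change of 1.13 ± 0.31 was the largest among members here (SE; limma adjusted p = 0.0842). Bmpr1a had 414, 357, 375 and 410 in TrkA-flox Th-cre, against 457, 449, 443 and 490 in wild type (log2 fold change -0.24 ± 0.08, SE; limma adjusted p = 0.149).

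Acvr1 had 149, 139, 166 and 202 in TrkA-flox Th-cre, against 270, 222, 186 and 256 in wild type, with 1 library of each group overlapping (log2 fold change -0.51 ± 0.15, SE; limma adjusted p = 0.11). Tgfb3 had 102, 99.3, 159 and 96.2 in TrkA-flox Th-cre, against 76.9, 77.3, 73.9 and 87.9 in wild type (log2 fold change 0.50 ± 0.17, SE; limma adjusted p = 0.153). In the temperature table, against the same wild-type libraries, Bmpr1a, Acvr1 and Tgfb3 had log2 fold changes of -0.40, -0.76 and 0.57. The low-level genes Grem1 (log2 fold change 0.98; limma adjusted p = 0.181) and Bmp2 (-0.66; limma adjusted p = 0.183) did not pass.

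Chrdl1 depended on a single library: it had 1204, 873, 850 and 413 in TrkA-flox Th-cre, against 589, 545, 432 and 465 in wild type (log2 fold change 0.63 ± 0.27, SE; limma adjusted p = 0.242). TrkA-flox Th-cre replicate 4 is the low value. Without it the log2 fold change was 0.93 (limma adjusted p = 0.0101), and 5 members passed in place of 1, among them Acvr1 at -0.61 (limma adjusted p = 0.034). Over all genes 7.15% passed without it, in place of 2.66%.

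Of the wider pathway, 1 of 39 tested genes passed, Htra3, a secreted protease, which averaged 1631 ± 87.7 in TrkA-flox Th-cre and 1122 ± 189 in wild type (SD, n = 4 each; log2 fold change 0.55 ± 0.12, SE; limma adjusted p = 0.0413). Htra3 lost its call in 5 of the 8 fits that left out a library (limma adjusted p up to 0.115). The wider pathway's share was 2.56%, beside 2.66% of all genes. None of 20 target genes passed by limma, and 4 had an unadjusted p under 0.05. Macrophage markers were higher for 6 of 11 tested, beside 1.34% of all genes. Their sums were 7987 to 9901 in TrkA-flox Th-cre and 4372 to 6047 in wild type. Schwann cell markers were lower for 2 of 8, with sums of 1389 to 2106 in TrkA-flox Th-cre and 2168 to 3529 in wild type, and skeletal muscle markers were higher for 3 of 11, with sums of 1293 to 7033 in TrkA-flox Th-cre and 326 to 958 in wild type. Fibroblast and progenitor markers summed to 11690 to 13620 in TrkA-flox Th-cre and 8452 to 10950 in wild type, with 0 of 8 called. All 8 had positive log2 fold changes. Adipocyte markers summed to 70720 to 91630 in TrkA-flox Th-cre and 50380 to 67530 in wild type. Of 7 tested, 5 had positive log2 fold changes and 1 was called, Retn, which was lower. The part of macrophage, Schwann cell, fibroblast and adipocyte RNA in the members' values was not tested.

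**Figure D2:**
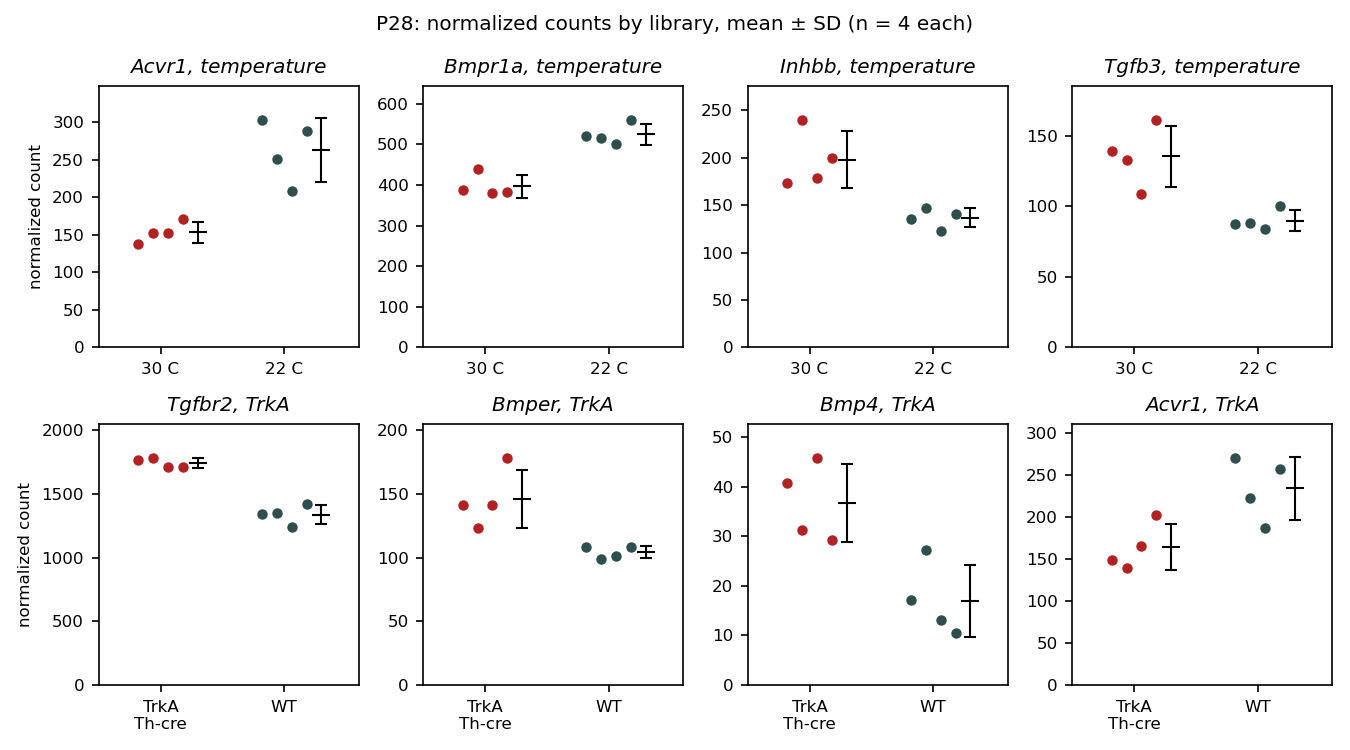
Normalized counts by library at P28 (vertical axes, starting at 0) for 4 members at 30 C and 22 C (top) and 4 members in TrkA-flox Th-cre and wild type (WT, bottom); dots are libraries and bars mean ± SD, n = 4 each. Acvr1 and Bmpr1a lay lower at 30 C with no overlap, and Tgfbr2 lay between 1710 and 1783 in TrkA-flox Th-cre, above every wild-type library.

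At P25, no member passed between libraries labelled Bcl6-flox Prx1-cre and Bcl6-flox, out of 43 tested by limma, and 6 had an unadjusted p under 0.05, a share near the 15.0% of all genes. Over all 12738 genes tested, 1.56% were higher and 1.97% lower. The median log2 fold change was 0.01 for members and 0.00 for all genes. Within-group spread was wide, with a median coefficient of variation over members of 26.2% in Bcl6-flox Prx1-cre and 24.6% in Bcl6-flox. It reached 92.1% for Fstl1 in Bcl6-flox.

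Ltbp2, a latent TGF-beta binding protein family member of elastic fibres, came nearest. Its lowest, median and highest values were 173, 324 and 426 in Bcl6-flox Prx1-cre, against 291, 512 and 899 in Bcl6-flox. The ranges overlapped, and the log2 fold change was -0.86 ± 0.24 (SE; limma adjusted p = 0.0608). It passed by limma with Xist as covariate (adjusted p = 0.0117), without the Bcl6-flox library F4 (0.015) and without the Bcl6-flox Prx1-cre library M2 (0.0499).

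Tgfb3 spanned 241, 292 and 343 (lowest, median, highest) in Bcl6-flox Prx1-cre, against 178, 209 and 278 in Bcl6-flox (log2 fold change 0.36 ± 0.11, SE; limma adjusted p = 0.102). Chrd, which encodes chordin, spanned 68.5, 129 and 167 in Bcl6-flox Prx1-cre, against 88.9, 234 and 287 in Bcl6-flox (log2 fold change -0.72 ± 0.23, SE; limma adjusted p = 0.118). It passed without the Bcl6-flox library M4 (log2 fold change -0.92; limma adjusted p = 0.0106). Both genes had overlapping ranges.

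Gdf15, a stress-induced ligand at low level, spanned 4.95, 14.9 and 22.6 in Bcl6-flox Prx1-cre, against 3.29, 7.62 and 10.4 in Bcl6-flox (log2 fold change 0.74; limma adjusted p = 0.264). Smad6 spanned 61.8, 113 and 157 in Bcl6-flox Prx1-cre, against 107, 149 and 214 in Bcl6-flox (log2 fold change -0.46; limma adjusted p = 0.309). Id genes had overlapping groups with near-equal means: Id1 averaged 569 ± 204 in Bcl6-flox Prx1-cre and 582 ± 143 in Bcl6-flox, and Id3 averaged 699 ± 206 in Bcl6-flox Prx1-cre and 697 ± 125 in Bcl6-flox (SD, n = 8 and 7).

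The wider pathway did hold calls at P25, with 4 of 42 tested genes higher and none lower. That was 9.52%, beside 3.53% of all genes, a difference that was not tested. Thbs1, whose product thrombospondin-1 can activate latent TGF-beta, averaged 1210 ± 266 in Bcl6-flox Prx1-cre and 526 ± 137 in Bcl6-flox (SD, n = 8 and 7; log2 fold change 1.22 ± 0.16, SE; limma adjusted p = 0.000282). Its groups did not overlap. Htra1, a secreted protease, rose by 0.93 ± 0.16 on the log2 scale (SE; limma adjusted p = 0.0031). Biglycan, a TGF-beta-binding proteoglycan encoded by Bgn, rose by 0.99 ± 0.22 (SE; limma adjusted p = 0.0186), and the ligand gene Bmp3 rose by 1.02 ± 0.25 (SE; limma adjusted p = 0.0331). Bmp3 lost its call in 9 of the 15 fits that left out a library (limma adjusted p up to 0.0673).

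Of 20 target genes tested, 1 passed: Tgfbi, a matrix protein named for its induction by TGF-beta, averaged 1870 ± 360 in Bcl6-flox Prx1-cre and 868 ± 478 in Bcl6-flox (SD, n = 8 and 7; log2 fold change 1.25 ± 0.26, SE; limma adjusted p = 0.0113). Macrophage markers summed to 8366 to 33490 in Bcl6-flox Prx1-cre and 4184 to 35590 in Bcl6-flox, and fibroblast markers to 16830 to 37510 in Bcl6-flox Prx1-cre and 10570 to 46720 in Bcl6-flox, with 0 of 12 and 0 of 8 called by limma.

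In adults at 4 C, libraries labelled Bcl6-flox Prx1-cre had higher RNA of 3 of 6 tested antagonists and binding proteins (Chrdl1, Bmper, Fstl3). They also had higher RNA of Bmp2, of the co-receptor Tgfbr3 and of Ltbp4. They had lower RNA of the type I receptors Bmpr1a and Acvr1b and of Ltbp2. Among 44 members tested, 6 were higher and 3 lower, or 20.5% in all. Over all 13496 genes, 9.01% were higher and 5.46% lower, a smaller share than among members, a difference that was not tested. The median log2 fold change was 0.02 for members and -0.02 for all genes. At an unadjusted p under 0.05, 17 members passed (38.6%), beside 29.9% of all genes.

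Among ligands, Bmp2 had 193, 143, 200 and 155 normalized counts in Bcl6-flox Prx1-cre, against 98.1, 91.9, 130 and 108 in Bcl6-flox. The groups were apart, and Bmp2 rose by 0.69 ± 0.16 on the log2 scale (SE; limma adjusted p = 0.027). Bmp4 had 154, 123, 107 and 115 in Bcl6-flox Prx1-cre, against 99.1, 58.7, 106 and 81.4 in Bcl6-flox, with ranges that nearly touch (log2 fold change 0.55; limma adjusted p = 0.121). Gdf15 had 4.44, 4.27, 26.1 and 25.3 in Bcl6-flox Prx1-cre, against 57.7, 19.0, 16.7 and 20.3 in Bcl6-flox. It varied more within groups than between them (log2 fold change -1.11; limma adjusted p = 0.312). Bmp7 showed a log2 difference of -0.70 (limma adjusted p = 0.288). It passed by limma without Bcl6-flox replicate 3 (-1.035, adjusted p = 0.0458), with the skeletal muscle score (-1.344, 0.0398) and with library weights (-1.197, 0.0107). In these fits 26.0%, 21.3% and 35.4% of all genes passed, in place of 14.5%. With another library left out Bmp7 came to -0.459.

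Among receptors, Tgfbr3, which encodes betaglycan and presents TGF-beta to its signalling receptors, had 5034, 5008, 4213 and 4185 in Bcl6-flox Prx1-cre, against 3182, 3193, 3373 and 3181 in Bcl6-flox. Its log2 fold change was 0.51 ± 0.08 (SE; limma adjusted p = 0.00504), the smallest p among members in any comparison. Bmpr1a had 1994, 2112, 1921 and 2010 in Bcl6-flox Prx1-cre, against 2376, 2510, 2527 and 2597 in Bcl6-flox. It fell by 0.32 ± 0.06 (SE; limma adjusted p = 0.00817). Acvr1b, a type I receptor for activins, had 589, 592, 636 and 652 in Bcl6-flox Prx1-cre, against 715, 735, 746 and 768 in Bcl6-flox, a narrow but complete separation. It fell by 0.26 ± 0.07 (SE; limma adjusted p = 0.0303).

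Of the antagonists and binding proteins, Chrdl1 showed the smallest p. Its chordin-like product binds BMPs, and it had 2094, 2107, 1655 and 2687 in Bcl6-flox Prx1-cre, against 875, 1076, 1329 and 953 in Bcl6-flox. The log2 fold change was 1.01 ± 0.17 (SE; limma adjusted p = 0.00633). Bmper had 1041, 747, 652 and 758 in Bcl6-flox Prx1-cre, against 293, 309, 591 and 208 in Bcl6-flox. Bcl6-flox replicate 3 was the high one of its group, and the log2 fold change of 1.27 ± 0.29 was the largest rise among members here (SE; limma adjusted p = 0.0234). Fstl3, whose product binds activins and myostatin, had 202, 255, 137 and 141 in Bcl6-flox Prx1-cre, against 98.1, 112, 80.6 and 72.5 in Bcl6-flox (log2 fold change 0.98 ± 0.23, SE; limma adjusted p = 0.027). Of the 6 tested, 4 had positive log2 fold changes. Fst had 220, 166, 208 and 165 in Bcl6-flox Prx1-cre, against 232, 249, 176 and 293 in Bcl6-flox. Chrd had 356, 298, 375 and 374 in Bcl6-flox Prx1-cre, against 340, 394, 590 and 371 in Bcl6-flox. Neither Fst nor Chrd passed.

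The latent TGF-beta binding proteins moved apart from each other. Ltbp4 had 6358, 5234, 5950 and 6182 in Bcl6-flox Prx1-cre, against 3408, 3043, 4604 and 3483 in Bcl6-flox, and rose by 0.72 ± 0.13 (SE; limma adjusted p = 0.00815). Ltbp2 had 702, 896, 1076 and 832 in Bcl6-flox Prx1-cre, against 1368, 1417, 1266 and 1409 in Bcl6-flox, and fell by 0.65 ± 0.12 (SE; limma adjusted p = 0.00986). Neither gene's groups overlapped. Ltbp1 and Ltbp3 did not pass.

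Tgfbr3, Chrdl1, Ltbp4, Bmpr1a and Ltbp2 passed by limma with each of the 8 libraries left out, at adjusted p up to 0.0349. The other 4 calls were lost in some of these fits. Bmper lost its call without Bcl6-flox Prx1-cre replicate 1, 2 or 4 or Bcl6-flox replicate 1 or 2 (limma adjusted p up to 0.0702), and Bmp2 without Bcl6-flox Prx1-cre replicate 1 or 3 or Bcl6-flox replicate 1, 2 or 4 (up to 0.0805). Acvr1b lost it without Bcl6-flox Prx1-cre replicate 1 or 2 or Bcl6-flox replicate 1, 2 or 4 (up to 0.0865), and Fstl3 without Bcl6-flox Prx1-cre replicate 1 or 2 or Bcl6-flox replicate 1 or 4 (up to 0.0793). Bcl6-flox replicate 3 stood apart in skeletal muscle RNA, with marker sums of 253 to 5784 in Bcl6-flox Prx1-cre and 2910 to 661600 in Bcl6-flox. Without this library 16 members passed, 10 higher and 6 lower, beside 26.0% of all genes in place of 14.5%.

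**Figure D3:**
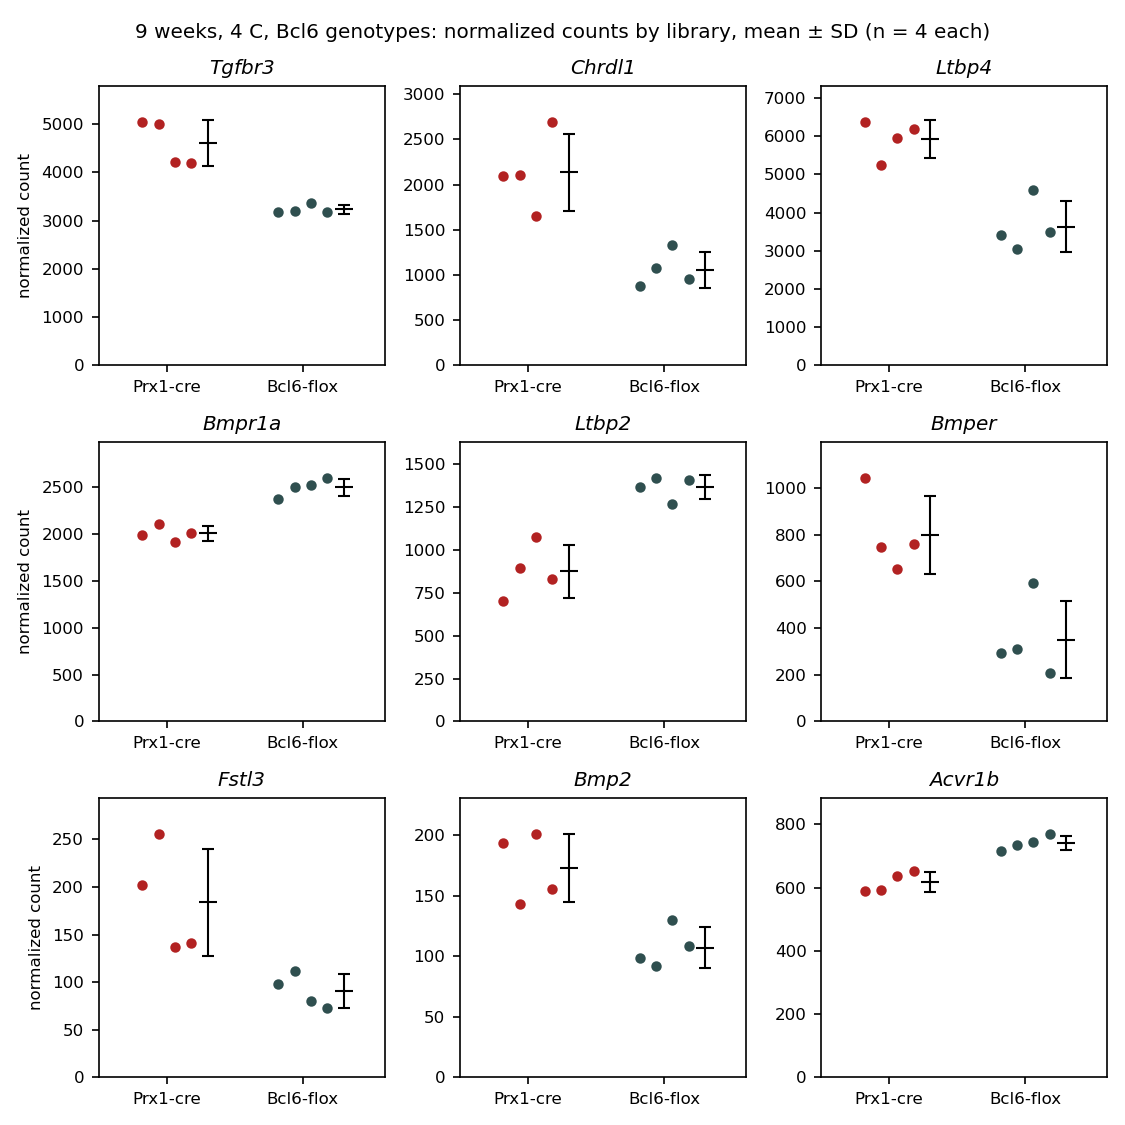
Normalized counts by library (vertical axes, starting at 0) of the 9 members that passed in adults at 4 C, in Bcl6-flox Prx1-cre (left of each panel) and Bcl6-flox (right); dots are libraries and bars mean ± SD, n = 4 each. No panel shows overlap, and the nearest approach is for Bmper, where Bcl6-flox replicate 3 had 591 and the lowest Bcl6-flox Prx1-cre library 652.

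The wider pathway had 8 genes higher and 4 lower among 50 tested. That was 24.0%, beside 14.5% of all genes, a difference that was not tested. Bgn averaged 9300 ± 2514 in Bcl6-flox Prx1-cre and 2600 ± 755 in Bcl6-flox (SD, n = 4 each; log2 fold change 1.84 ± 0.24, SE; limma adjusted p = 0.00257). Htra1 averaged 5469 ± 1355 in Bcl6-flox Prx1-cre and 2136 ± 158 in Bcl6-flox (log2 fold change 1.33 ± 0.16, SE; limma adjusted p = 0.00203). Bmp3 (0.80; limma adjusted p = 0.00425) and Htra3 (0.68; limma adjusted p = 0.00973) were also higher. Thbs1, Tll1, Nrros and Ski were the other genes that rose, and Bmp8b, Pmepa1, Itgb6 and Smurf2 fell. Bgn, Htra1, Bmp3 and Thbs1 are thus the 4 genes that also rose in the P25 table, in other libraries, where the log2 fold changes were 0.99, 0.93, 1.02 and 1.22.

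Of 22 usual target genes tested, 7 were higher and 1 lower, beside the same 9.01% and 5.46% of all genes. Collagen I genes were among them: Col1a1 averaged 12250 ± 1960 in Bcl6-flox Prx1-cre and 3724 ± 1076 in Bcl6-flox (SD, n = 4 each; log2 fold change 1.75 ± 0.22, SE; limma adjusted p = 0.00232), and Col1a2 showed a log2 difference of 1.25 (limma adjusted p = 0.00237). Tgfbi averaged 3450 ± 555 in Bcl6-flox Prx1-cre and 1413 ± 123 in Bcl6-flox (log2 fold change 1.28 ± 0.12, SE; limma adjusted p = 0.000653). Tsc22d1, a leucine zipper protein gene known to respond to TGF-beta, showed a log2 difference of 0.80 (limma adjusted p = 0.00153).

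Macrophage markers moved with genotype in these libraries. Of 12 tested, 9 were higher, beside 9.01% of all genes. The list summed to 21390 to 37150 in Bcl6-flox Prx1-cre and 13040 to 17100 in Bcl6-flox. Mural cell markers summed to 25270 to 27660 in Bcl6-flox Prx1-cre and 19070 to 21260 in Bcl6-flox, with 3 of 8 higher (Rgs5, Pdgfrb and Mcam) and Cspg4 lower. Fibroblast and progenitor markers summed to 43210 to 52340 in Bcl6-flox Prx1-cre and 34970 to 39590 in Bcl6-flox, with 1 of 8 higher (Dpt). Endothelial markers summed to 15650 to 18430 in Bcl6-flox Prx1-cre and 9716 to 16780 in Bcl6-flox, with 2 of 8 higher (Vwf and Plvap). The part of these cell types in the members' values was not tested.

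Smad and Id genes did not pass at 9 weeks. Smad9, which transmits BMP signals, had 71.8, 75.6, 33.3 and 41.7 in Bcl6-flox Prx1-cre, against 19.7, 29.2, 41.6 and 27.3 in Bcl6-flox (log2 fold change 0.86; limma adjusted p = 0.121). It passed by limma without Bcl6-flox replicate 3 (1.04; adjusted p = 0.0471), with the skeletal muscle score (1.32; adjusted p = 0.0285) and with library weights (1.10; adjusted p = 0.0138). Id1 had 779, 700, 1378 and 1409 in Bcl6-flox Prx1-cre, against 1098, 835, 1206 and 870 in Bcl6-flox, and Id3 had 1816, 1512, 2308 and 2134 in Bcl6-flox Prx1-cre, against 2709, 1774, 1869 and 2523 in Bcl6-flox. The genotypes overlapped for both genes.

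The 9 calls at 9 weeks can be set beside P25, where libraries labelled by the same genotypes were kept at 22 C. Age, temperature and table all differ, and the difference between the ages was not tested. Ltbp2 had log2 fold changes of -0.65 at 9 weeks and -0.86 at P25. Chrdl1 had 1.01 at 9 weeks and 0.18 at P25, where its lowest, median and highest values were 380, 872 and 1328 in Bcl6-flox Prx1-cre and 450, 697 and 1454 in Bcl6-flox. Bmpr1a had -0.32 at 9 weeks and -0.20 at P25, with 364, 626 and 864 in Bcl6-flox Prx1-cre and 568, 737 and 880 in Bcl6-flox. With a P25 library left out, Chrdl1 ranged from 0.07 to 0.35 and Bmpr1a from -0.27 to -0.09 on the log2 scale. Only Ltbp2 of these had an unadjusted p under 0.05 at P25.

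**Figure D4:**
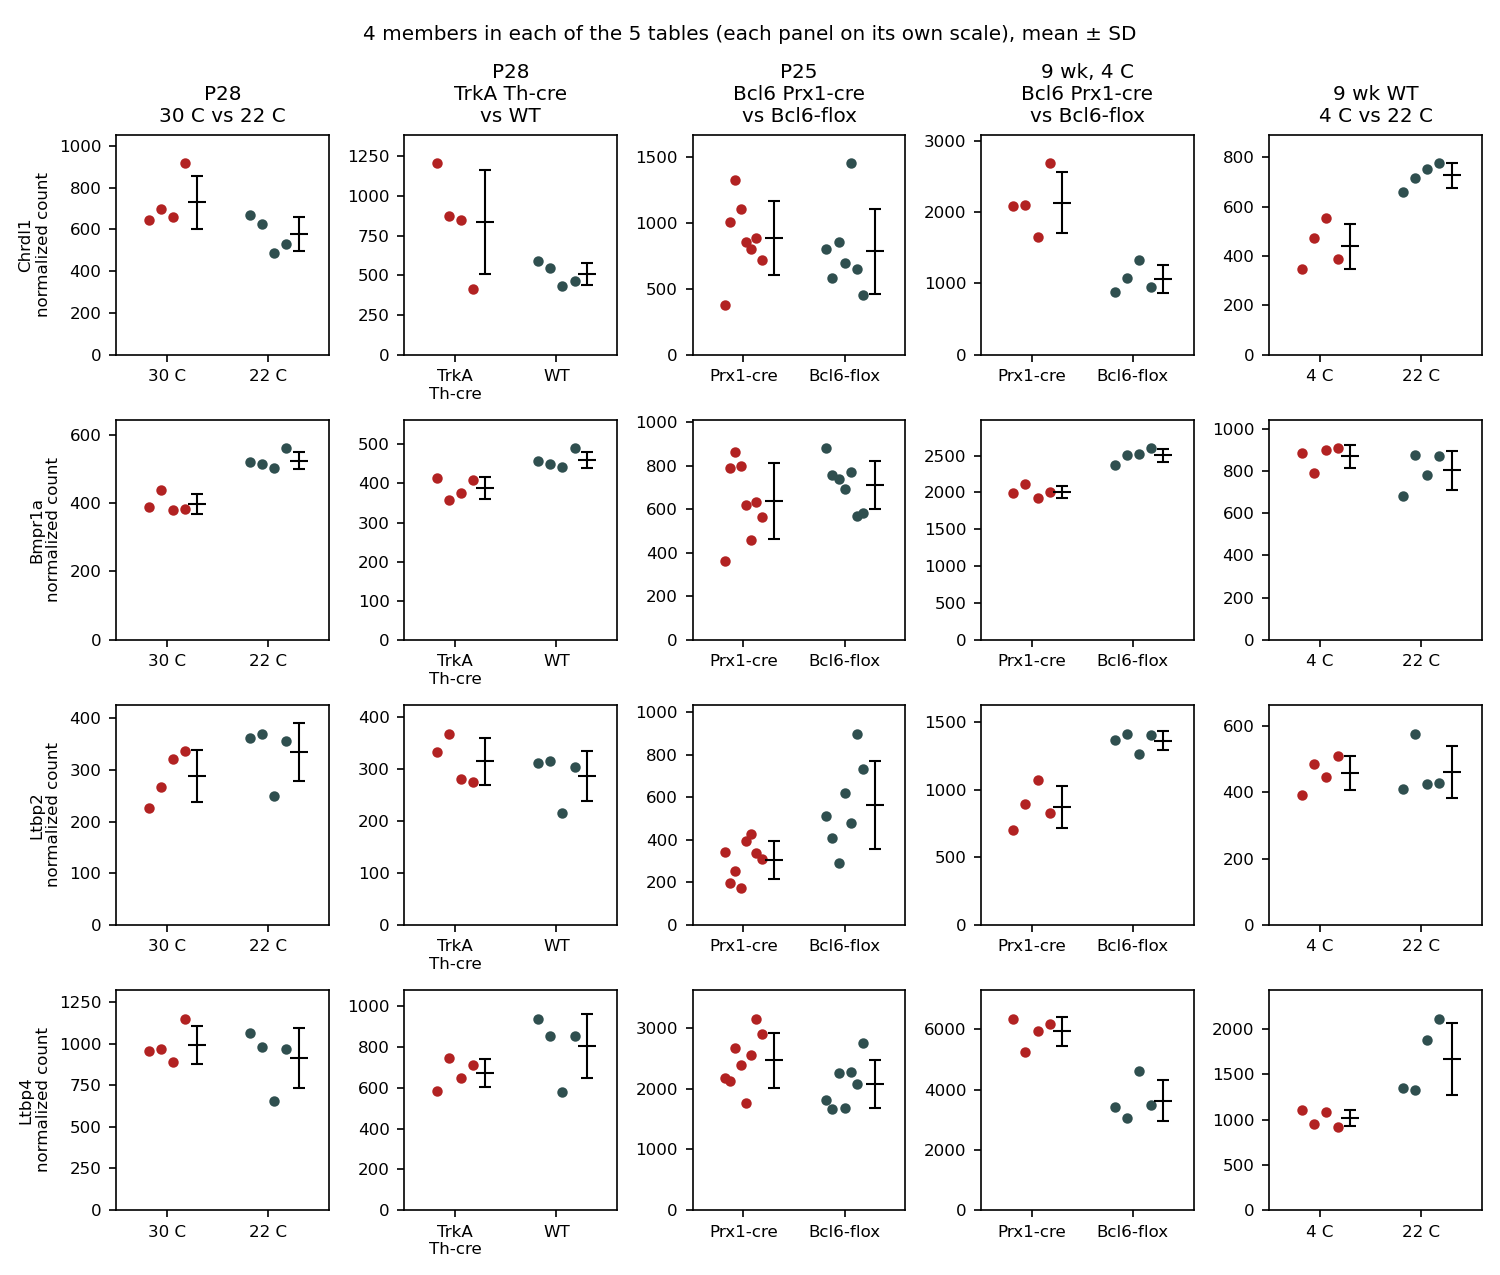
Chrdl1, Bmpr1a, Ltbp2 and Ltbp4 (rows) in each of the 5 tables (columns), in normalized counts by library; each panel has its own axis from 0, with dots for libraries and bars for mean ± SD. Chrdl1 lay higher in adult Bcl6-flox Prx1-cre (1655 to 2687) than in Bcl6-flox (875 to 1329), and lower in wild type at 4 C (347 to 552) than at 22 C (660 to 775).

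In adult wild type, cold housing at 4 C went with lower RNA of Acvrl1, a type I receptor best known from endothelium, and of the BMP antagonist gene Chrdl1. These were 0 higher and 2 lower of 42 members tested, or 4.76%, beside 2.03% of all 12118 genes higher and 2.44% lower, a share near that of all genes. The members' median log2 fold change was -0.12, against 0.02 over all genes, and 12 (28.6%) had an unadjusted p under 0.05, near the 23.8% of all genes.

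Acvrl1 had 227, 229, 218 and 272 normalized counts at 4 C, against 333, 377, 389 and 404 at 22 C. The groups were apart, and Acvrl1 fell by 0.67 ± 0.11 on the log2 scale (SE; limma adjusted p = 0.0242). Chrdl1 had 347, 471, 552 and 389 at 4 C, against 660, 717, 753 and 775 at 22 C. It fell by 0.74 ± 0.15 (SE; limma adjusted p = 0.0374), in the direction opposite to that of adult Bcl6-flox Prx1-cre over Bcl6-flox, both of which were kept at 4 C.

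In each group, libraries 1 and 2 had low Xist and libraries 3 and 4 high Xist, and the values above keep that order. Both genes were lower at 4 C within either pair of libraries. With Xist as covariate 13 members passed by limma in place of 2, with 3 higher and 10 lower, while calls over all genes went up as well, to 18.4% in place of 4.47%. With the skeletal muscle score 8 members passed, beside 15.9% of all genes. With a library left out, Acvrl1 passed only without 4 C replicate 4 or 22 C replicate 3 (limma adjusted p up to 0.0917 in the other fits), and Chrdl1 only without 4 C replicate 3 (up to 0.111 in the others).

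Members that passed by limma with Xist in the fit, and not in the fit without covariates, included Fstl1, Tgfb1, Ltbp4, Smad6 and Id1. Fstl1, a secreted glycoprotein gene, had 1029, 667, 1782 and 1336 at 4 C, against 1354, 1522, 4280 and 3685 at 22 C. Each high-Xist library at 22 C exceeded every library at 4 C, and the log2 fold change was -1.08 (limma adjusted p = 0.184 without the covariate and 0.00865 with it). Tgfb1 had 140, 131, 224 and 245 at 4 C, against 248, 199, 391 and 322 at 22 C (limma adjusted p = 0.192 without and 0.01 with the covariate).

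Ltbp4 had 1103, 956, 1083 and 923 at 4 C, against 1348, 1324, 1883 and 2116 at 22 C, with no overlap (log2 fold change -0.69 ± 0.17, SE; limma adjusted p = 0.0552). Ltbp3 had 1960, 2527, 2478 and 1970 at 4 C, against 3635, 4404, 2542 and 3198 at 22 C, where the groups nearly touch (log2 fold change -0.61 ± 0.18, SE; limma adjusted p = 0.09). Bmpr2, the main BMP type II receptor gene, had 842, 788, 811 and 732 at 4 C, against 627, 669, 645 and 671 at 22 C (log2 fold change 0.28 ± 0.08, SE; limma adjusted p = 0.0847).

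Smad6 had 48.9, 96.6, 79.2 and 63.1 at 4 C, against 295, 228, 95.8 and 145 at 22 C. Replicate 3 at 22 C fell inside the 4 C range, and the log2 fold change was -1.32 ± 0.36 (SE; limma adjusted p = 0.0747). Without that library it was -1.60 (limma adjusted p = 0.0404). Id1 had 278, 251, 148 and 196 at 4 C, against 457, 416, 232 and 220 at 22 C, with groups that overlap (log2 fold change -0.57 ± 0.30, SE; limma adjusted p = 0.289). Inhbb had 187, 71.1, 787 and 557 at 4 C, against 765, 538, 734 and 889 at 22 C, and its log2 fold change of -1.38 came with a limma adjusted p of 0.255. It was -0.73 without 4 C replicate 2 and -1.88 without 4 C replicate 3.

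Bmpr1a, lower at 30 C and in adult Bcl6-flox Prx1-cre, had 885, 790, 902 and 907 at 4 C, against 681, 875, 781 and 873 at 22 C, with overlap (log2 fold change 0.12 ± 0.11, SE; limma adjusted p = 0.539). Acvr1, the other receptor that fell at 30 C, did not pass at 4 C.

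**Figure D5:**
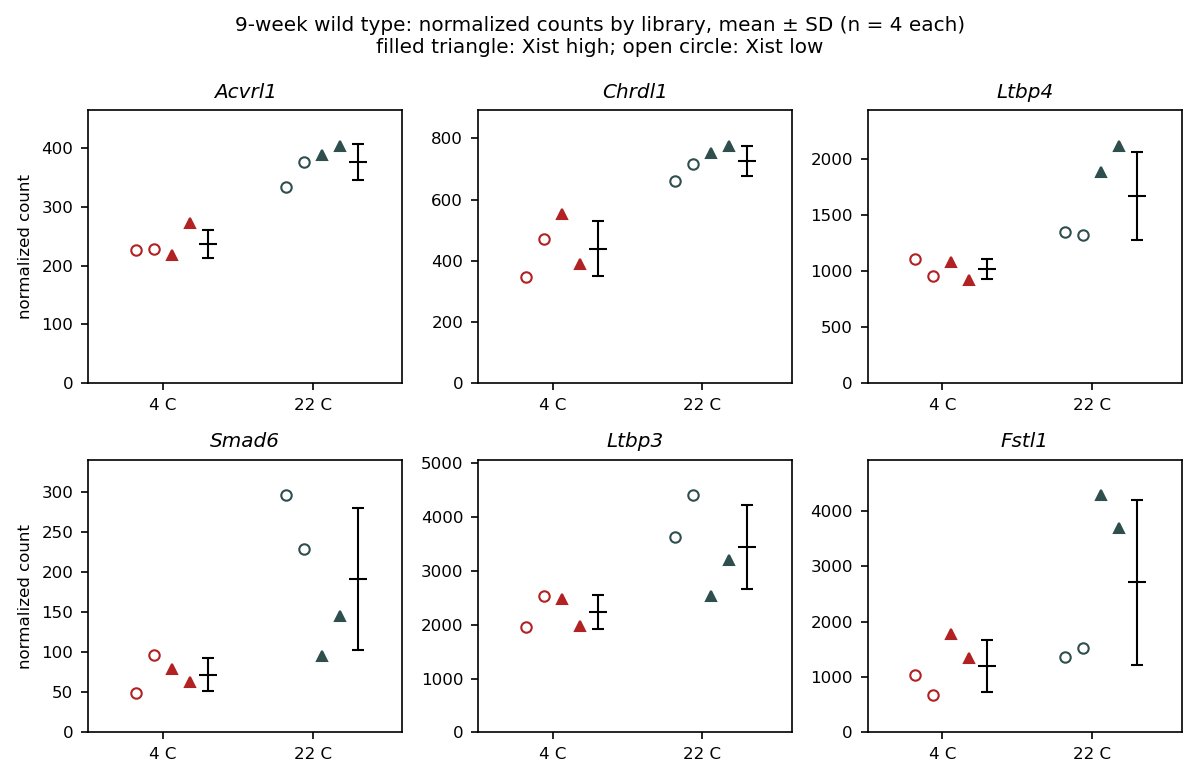
Normalized counts by library (vertical axes, starting at 0) of 6 members in 9-week wild type at 4 C and 22 C; filled triangles are libraries with high Xist, open circles those with low Xist, and bars mean ± SD, n = 4 each. Acvrl1 and Chrdl1 lay lower at 4 C for both marks, while Fstl1 at 22 C split into 1354 and 1522 for low Xist and 3685 and 4280 for high Xist.

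Of the wider pathway, 2 of 39 tested genes passed, or 5.13%, beside 4.47% of all genes. Pmepa1, a membrane protein known to dampen TGF-beta signalling, averaged 827 ± 381 at 4 C and 3935 ± 1648 at 22 C (SD, n = 4 each; log2 fold change -2.28 ± 0.40, SE; limma adjusted p = 0.0272). Hipk2 averaged 1591 ± 382 at 4 C and 687 ± 199 at 22 C (log2 fold change 1.23 ± 0.23, SE; limma adjusted p = 0.0324). Of 21 target genes tested, 1 passed: Cdkn1a, a cell cycle inhibitor gene, averaged 1097 ± 624 at 4 C and 159 ± 44.6 at 22 C (log2 fold change 2.61 ± 0.44, SE; limma adjusted p = 0.0254). Each of these 3 calls was lost without some library, at adjusted p up to 0.0917, 0.0975 and 0.0917.

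Of 7 endothelial markers tested, 1 was called lower at 4 C, Cldn5, and 2 had positive log2 fold changes (median -0.137). Of 8 mural markers tested, 2 were called lower, Rgs5 and Cspg4, and 3 had positive log2 fold changes (median -0.127). Mural markers summed to 5502 to 7797 at 4 C and 10100 to 11150 at 22 C. Endothelial markers summed to 3576 to 4521 at 4 C and 4585 to 5296 at 22 C. Their part in the value of Acvrl1 was not tested.

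The intracellular members had no call in any of the 5 comparisons under the settings used throughout the text above. Under some alternative settings Smad3 passed at 30 C, Smad2, Smad3, Smad9 and Id2 in adult Bcl6-flox Prx1-cre, and Smad6 and Id1 at 4 C. Among the 8 Smad genes, of which 7 were tested at P28, limma adjusted p was lowest at 0.0505 at 30 C, 0.221 in TrkA-flox Th-cre, 0.309 at P25, 0.105 in adult Bcl6-flox Prx1-cre and 0.0747 at 4 C, with 2, 2, 1, 3 and 1 genes at an unadjusted p under 0.05. Among Id1, Id2 and Id3, 1 gene had such a p at 30 C, 1 in TrkA-flox Th-cre and 0 in each of the others. RNA levels of these genes do not measure Smad phosphorylation, which was not assayed in the data used here.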

How the data were processed

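Inguinal white adipose tissue was profiled by stranded mRNA RNA-seq in 43 libraries of 9 groups. Per the submitters' processing notes, kallisto and DESeq2 were used with mm10; their versions are not stated in the sources used here. The deposited tables hold normalized counts (unit: signal) per gene identifier, which the authors normalized within each of 5 tables. The same 4 wild-type libraries stand in both P28 tables, and the ratio of their values between these varied by gene. It ran from 0.40 to 2.61, so the normalization was not 1 factor per library. The values are not whole: 59.2 to 78.8% came within 0.1 of a whole multiple of the commonest low value, so whole reads were not recovered and no count test was run.

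Per table, limma 3.58.1 (lmFit and eBayes with trend, R 4.3.3) was fitted on log2(value + 1) over all genes with 10 or more in a number of libraries no lower than the size of the smaller group, with Benjamini-Hochberg adjustment and a two-sided threshold of 0.05. Fold changes are on that scale, which understates low genes. The procedure was tested on data simulated with normal spread. These held no skeletal muscle, Xist or other structure between libraries, so that test does not cover such structure. Tables normalized separately were not tested against each other. Each library was grouped by its label; columns of the P25 table, headed by a letter and a number, were matched to a group only. No 2 libraries held identical values. Depth estimated from that step was 3500000 to 30500000 reads per library; precision is given as SD or SE over libraries.

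Members and lists were chosen with earlier results of these data known. Named are all members that passed, values by library for the 6 smallest adjusted p per comparison, up to 4 large folds, members that passed in 2 tables, and up to 4 passing genes per other list; Id genes and a few further members were named after their values were seen. Alternatives were another scaling, filter or pseudocount, library weights, covariates (skeletal muscle score, Xist), a replicate block and leaving out each library. The gene table and promoters are RefSeq's for GRCm38.p6; 21 identifiers had no symbol. Gdf10 was not analysed here. The gene targeted in TrkA-flox Th-cre is not reported here.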

Additional observations from a re-analysis of the deposited data

Results flagged for a closer look

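In 6 of 102 groups of values (a named member in a group of 4 to 10 libraries), a single library stood apart from the others by Dixon's criterion, where chance gives about 1 in 20. At P28, Bmpr1a had 439.7 normalized counts in 30 C replicate 2 and 379.2 to 387.4 in the other 30 C libraries, still below all libraries at 22 C. In TrkA-flox Th-cre, Grem1 had 28.12 in replicate 4 and 15.11 to 15.75 in the others, and Tgfb3 had 159.1 in replicate 3 and 96.25 to 102.2 in the others. At P25, Chrdl1 had 1454 in the Bcl6-flox library M2 and 449.9 to 857.5 in the rest. In adult Bcl6-flox, Gdf15 had 57.67 in replicate 1 and 16.7 to 20.28 in the others, and Tgfbr3 had 3373 in replicate 3 and 3181 to 3193 in the others.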

How the results depend on the processing

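Members passing limma numbered 4 at 30 C, 1 in TrkA-flox Th-cre, 0 at P25, 9 in adult Bcl6-flox Prx1-cre and 2 at 4 C. The shares of all genes were 4.45%, 2.66%, 3.53%, 14.5% and 4.47%. With no filter on low values members passing were 2 at 30 C, 2 in TrkA-flox Th-cre and 1 at P25, beside 2.37%, 1.53% and 2.14% of all genes. With quantile scaling they were 1 at P25, beside 3.6% of all genes. With library weights they were 4 in TrkA-flox Th-cre, 1 at P25, 22 in adult Bcl6-flox Prx1-cre and 9 at 4 C, beside 8.04%, 4.53%, 35.4% and 15.4% of all genes. With the skeletal muscle covariate they were 0 at 30 C, 0 in TrkA-flox Th-cre, 15 in adult Bcl6-flox Prx1-cre and 8 at 4 C. The shares of all genes were then 0.79%, 0.168%, 21.3% and 15.9%. With the Xist covariate members passing were 0 in TrkA-flox Th-cre, 1 at P25 and 13 at 4 C, beside 2.25%, 3.99% and 18.4% of all genes. Leaving out each library gave 0 to 3 members at 30 C, 0 to 5 in TrkA-flox Th-cre, 0 to 1 at P25, 5 to 16 in adult Bcl6-flox Prx1-cre and 0 to 2 at 4 C. The shares of all genes in these fits ran from 1.41 to 5.74%, 0.773 to 7.15%, 2.24 to 5.2%, 7.74 to 26.0% and 0.292 to 2.91%. The cause of these shifts was not tested. Over the 70 values of single genes run under the alternatives, no fold change turned its direction; Id genes and some others named were not among them. With a library left out, 541 of 652 values kept their side of the threshold, 102 lost the call and 9 gained it. The 652 include genes that had not passed at the start and so had no call to lose. Of the 16 member calls, 5 passed with every library left out in turn.

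Same-number correlations of deviations ranged from -0.662 to 0.768 over the comparisons, and the labels do not say that the numbers pair libraries. In adult wild type the same-number values were -0.262, 0.768, 0.501 and 0.508, and different-number values ran from -0.761 to 0.642. There libraries 1 and 2 had low Xist and libraries 3 and 4 high Xist in both groups, so the numbers carry a shared structure in that comparison. A fit with the number as a block gave 0 members at 30 C, 0 in TrkA-flox Th-cre, 7 in adult Bcl6-flox Prx1-cre and 8 at 4 C. The shares of all genes were 1.92%, 2.16%, 8.68% and 13.7%. The P25 columns could not be matched to the numbers in the labels, so no block was fitted there. Depth limits what can be said of low genes: Nog, Inhba, Gdf3, Gdf6 and Bmpr1b were too low to be tested. With no filter, Inhba showed a log2 difference of 1.38 at P25 (limma adjusted p = 0.0221), and Gdf15 had -2.29 in TrkA-flox Th-cre (limma adjusted p = 0.0477), both at low values.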
